A study of Caenorhabditis elegans with 6 samples.

Results

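The ephrin, Eph receptor, semaphorin and plexin genes of Caenorhabditis elegans were followed in RNA sequencing libraries of anchor cells and of cells of the whole body. The set was chosen by gene symbol and holds 10 of the 46748 gene rows in the files: the ephrins efn-1, efn-2, efn-3 and efn-4, the Eph receptor vab-1, the semaphorins smp-1, smp-2 and mab-20, and the plexins plx-1 and plx-2. Of these, 9 were found under the listed symbol. The remaining gene, efn-1, was read from the row named vab-2, the older name of the gene that encodes ephrin EFN-1. The set was put together with earlier results of the anchor cell to whole-body contrast in view, so the values of its members in that contrast are a description and support no claim of their own.

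The anchor cell is the specialised uterine cell that breaches basement membrane to link the gonad with the vulval epidermis. The libraries came from anchor cells (n = 3) and, for reference, from whole-body cells (n = 3). All animals were labelled wild type. They were harvested in mid L3, the third larval stage, at the point where P6.p, a precursor of the vulva, had become 2 cells. Larvae were raised at 20 °C, and both groups of cells were freed with pronase E and passed through a 5 μm filter. No source used here says how anchor cells were set apart from the rest. Nothing in the labels says whether replicates came from separate cultures, so every test here measures only the spread between these libraries.

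Ephrins are ligands held at the cell surface that bind Eph receptor tyrosine kinases on neighbouring cells, and contact between them can repel or attach cells. VAB-1 is the Eph receptor of the worm, and EFN-4 is known to act in part without it. Semaphorins signal through plexins: the membrane-bound SMP-1 and SMP-2 act through PLX-1, and the secreted MAB-20 acts through PLX-2. In the worm these genes are known for roles in epidermal enclosure of the embryo, axon guidance, the sorting of male tail rays and the shaping of the vulva.

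Each library held between 23279623 and 37501816 counts on genes. Genes with any count numbered 16990, 11508 and 11073 in anchor cell replicates 1, 2 and 3. In whole-body replicates 1, 2 and 3 they numbered 21246, 22216 and 17185. The bearing of this difference on the values of single genes was not tested. Levels are given as CPM, counts scaled to a common library size, after TMM scaling, which corrects library totals for differences in make-up. At that scaling 3 counts, taken as an approximate upper limit on the expected count behind a 0, came to 0.0483 to 0.154 CPM. This limit is not an absolute maximum and covers counting error only. Of 10 markers of the anchor cell listed for a check of the label, 7 were past the threshold upward and none downward. All 10 had counts in every library of both groups, so their detection alone does not check the label. Him-4 went the other way without passing, with means of 186 CPM in anchor cells and 306 CPM in whole-body cells (log2 fold change -0.72). For zmp-1, which also did not pass, the means were 1.02 CPM in anchor cells and 0.665 CPM in whole-body cells. The edgeR quasi-likelihood test, with a threshold of 0.05 on the adjusted p, ran on 11955 genes, of which 240 were higher and 125 lower in anchor cells. With libraries scaled by their totals alone the same test gave 98 higher and 372 lower. Over all tested genes the median log2 fold change came to -0.12 with TMM scaling and -0.94 with library totals, so directions of small changes depend on the scaling.

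Among the ephrins, efn-2 stood far above the others in anchor cells, and the other 3 ephrin genes were low or near 0 there. Efn-2 had 36.9, 53.6 and 94.1 CPM in anchor cell replicates 1, 2 and 3, against 12.6, 9.82 and 3.99 CPM in whole-body replicates 1, 2 and 3. Every anchor cell library lay above every whole-body library, and within the whole-body group replicate 3 was the lowest. The means were 61.5 ± 29.4 CPM in anchor cells and 8.79 ± 4.38 CPM in whole-body cells (n = 3 each, SD), a log2 fold change of 2.80 ± 0.63 (SE). The efn-2 gene lies on chromosome IV at 10576350 to 10578288 of WBcel235, has 1 annotated transcript and overlaps no other annotated gene.

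Efn-2 was the 1 member past the threshold of the fit over all genes, where 2.01% of tested genes were called higher and 1.05% lower, and no member was called lower. Before adjustment, 3 members, efn-2, smp-1 and plx-1, were higher and none was lower with an edgeR p under 0.05. Of all tested genes, 11.2% were higher and 13.2% lower at that level. Efn-2 was also the sole member called by DESeq2, which gave no p-value for vab-1. It was again the sole member called by limma voom, whether or not the libraries were weighted. The call was kept without anchor cell replicate 1 and lost without any other single library, with log2 fold changes between 2.36 and 3.14. It was also lost with upper-quartile scaling (2.55) and with library totals alone (1.90).

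The gene of ephrin EFN-1, which is needed to close the embryonic epidermis, was low in both groups. It had 2.19, 4.35 and 0 CPM in anchor cell replicates 1, 2 and 3, against 2.88, 3.14 and 2.69 CPM in whole-body replicates 1, 2 and 3. The whole-body libraries were close to each other, and under this scaling the anchor cell libraries lay on both sides of them. With libraries scaled by their totals, the anchor cell values of 1.94, 3.07 and 0 CPM all lay below the whole-body values of 3.36, 5.20 and 3.26 CPM, with a log2 fold change of -1.24 that did not pass. With TMM scaling the log2 fold change was -0.41 ± 1.51 (SE), and it was 0.17 without anchor cell replicate 3, the library with no count of it.

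Efn-4 and efn-3 were close to the limit of detection. Efn-4 had 4, 6 and 0 counts in anchor cell replicates 1, 2 and 3, against 54, 26 and 12 counts in whole-body replicates 1, 2 and 3. In CPM the anchor cell libraries stood below the whole-body libraries with no overlap, at 0.159, 0.307 and 0 CPM against 1.31, 0.418 and 0.424 CPM. With 10 counts over the anchor cell libraries and 92 over the whole-body libraries, the fitted log2 fold change of -2.18 ± 1.498 (SE) is imprecise, and efn-4 did not pass. Efn-3 had 4 counts in anchor cell replicate 1 and 10 in whole-body replicate 1, and none in the other libraries. It was the 1 member that did not pass the filter on low counts, and no fold is given for it.

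**Figure D1:**
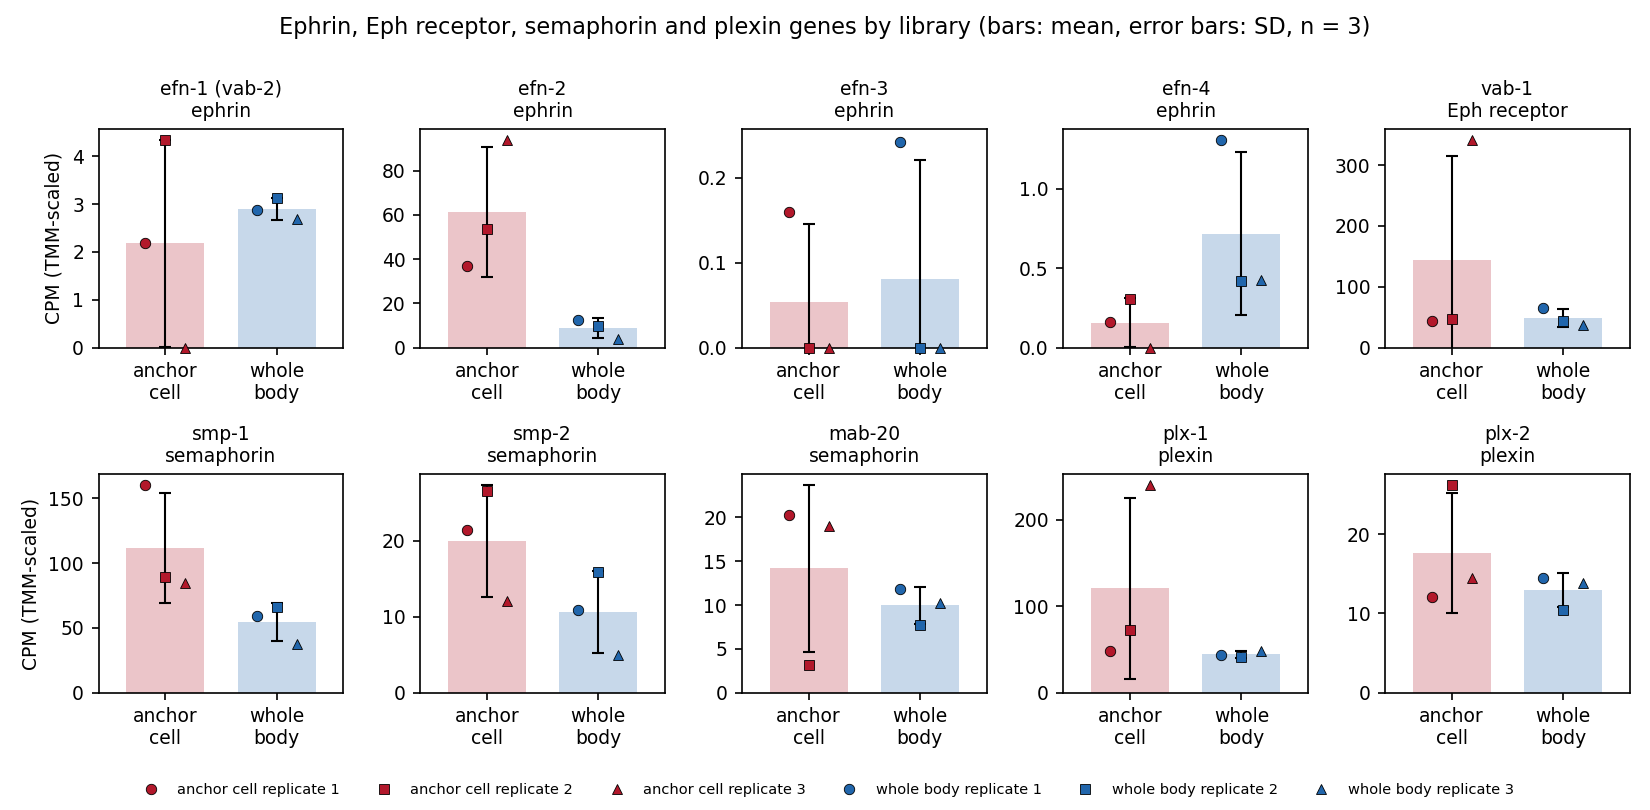
TMM-scaled CPM of the 10 genes in each library, on a separate linear axis from 0 for each gene; bars are means, error bars are SD (n = 3) and are drawn only above 0, and marker shapes give the replicate number. Efn-2 separated the groups without overlap, at 36.9 to 94.1 CPM in anchor cells and 3.99 to 12.6 CPM in whole-body cells, whereas the high vab-1 mean of anchor cells came from replicate 3 at 341 CPM.

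Shares within a library do not depend on scaling between libraries. Of the counts per exon length on the 4 ephrin genes, efn-2 took 94.3%, 93.0% and 100% in anchor cell replicates 1, 2 and 3, against 77.1%, 76.2% and 59.9% in whole-body replicates 1, 2 and 3. Efn-2 was thus the leading ephrin transcript in all 6 libraries, and its share in every anchor cell library was above that in every whole-body library. The mean share was 95.8% ± 3.74 in anchor cells and 71.1% ± 9.67 in whole-body cells (n = 3 each, SD). Most of the remainder was efn-1, at 0% to 6.67% in anchor cells, against 15.6% to 35.6% in whole-body cells. Efn-4 made up 0% to 0.377% of ephrin transcripts in anchor cells, against 2.30% to 5.68% in whole-body cells.

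The Eph receptor gene vab-1 was well expressed in both groups but uneven among anchor cell libraries. It had 42.96, 47.0 and 341 CPM in anchor cell replicates 1, 2 and 3, against 64.7, 44.3 and 36.6 CPM in whole-body replicates 1, 2 and 3. With TMM scaling, anchor cell replicates 1 and 2 lay within the whole-body range, and replicate 3 stood apart with 7071 counts. With library totals, anchor cell replicates 1 and 2, at 38.1 and 33.2 CPM, lay below the whole-body range of 44.5 to 75.4 CPM. Anchor cell replicate 3 was again the highest, at 230 CPM, and the log2 fold change was 0.64. The log2 fold change of vab-1 was 1.56 ± 0.76 (SE) over all libraries and -0.11 without anchor cell replicate 3. It did not pass the threshold in either case, and DESeq2, run as an alternative, returned no p-value for this gene.

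The ratio of efn-2 to vab-1 per exon length, which also needs no scaling between libraries, was 3.502, 4.65 and 1.13 in anchor cell replicates 1, 2 and 3, against 0.792, 0.904 and 0.445 in whole-body replicates 1, 2 and 3. Transcripts of the ligand thus outnumbered those of the receptor in each anchor cell library, and the receptor was ahead in each whole-body library. In anchor cell replicate 3, where both genes were at their highest, the ratio lay closest to the whole-body range. The groups overlapped for the other ligand to receptor ratios taken, smp-1 and smp-2 over plx-1 and mab-20 over plx-2. Smp-1 over plx-1 was 8.08, 3.00 and 0.859 in anchor cell replicates 1, 2 and 3. In whole-body replicates 1, 2 and 3 it was 3.29, 3.95 and 1.90.

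Among the semaphorins, smp-1 was the most abundant in every library. Smp-1 had 161, 89.5 and 84.7 CPM in anchor cell replicates 1, 2 and 3, against 59.0, 66.4 and 38.0 CPM in whole-body replicates 1, 2 and 3. The groups did not overlap under TMM scaling. With libraries scaled by their totals they did, at 142, 63.2 and 57.1 CPM in anchor cells against 68.7, 110 and 46.1 CPM in whole-body cells. The log2 fold change was 1.04 ± 0.45 (SE) with TMM scaling and 0.22 with library totals, and smp-1 did not pass under either. Its gene lies on chromosome I at 14807462 to 14815753 and shares 98 exonic bases, 3.65% of its exons, with Y54E5B.2 on the other strand; the strand setting of the counting is not given, so reads from that stretch cannot be assigned.

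Smp-2, the other membrane-bound semaphorin, had 21.4, 26.6 and 12.0 CPM in anchor cell replicates 1, 2 and 3, against 10.9, 15.8 and 5.02 CPM in whole-body replicates 1, 2 and 3. Anchor cell replicate 3 fell inside the whole-body range. Mab-20, the secreted semaphorin, had 20.3, 3.17 and 19.1 CPM in anchor cell replicates 1, 2 and 3, against 11.9, 7.76 and 10.3 CPM in whole-body replicates 1, 2 and 3. Its anchor cell libraries lay above and below the whole-body range, with replicate 2, at 62 counts, the lowest of all 6. Log2 fold changes were 0.92 ± 0.67 for smp-2 and 0.51 ± 0.78 for mab-20 (SE), and with library totals 0.025 and -0.24. Neither gene passed the threshold.

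The make-up of the semaphorin family was much alike in the groups. Smp-1 took 80.8%, 75.1% and 75.4% of the family's counts per exon length in anchor cell replicates 1, 2 and 3, against 74.1%, 74.8% and 74.0% in whole-body replicates 1, 2 and 3. Each anchor cell share exceeded each whole-body share, though not with the longest transcript as length, and the means, 77.1% ± 3.21 in anchor cells and 74.3% ± 0.436 in whole-body cells (n = 3 each, SD), were closer together than the anchor cell SD. Smp-2 took 10.98% to 22.8% in anchor cells, against 10.0% to 18.2% in whole-body cells. Mab-20 took 2.13% to 13.6% in anchor cells, against 7.001% to 16.01% in whole-body cells, and the groups overlapped for both genes.

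**Figure D2:**
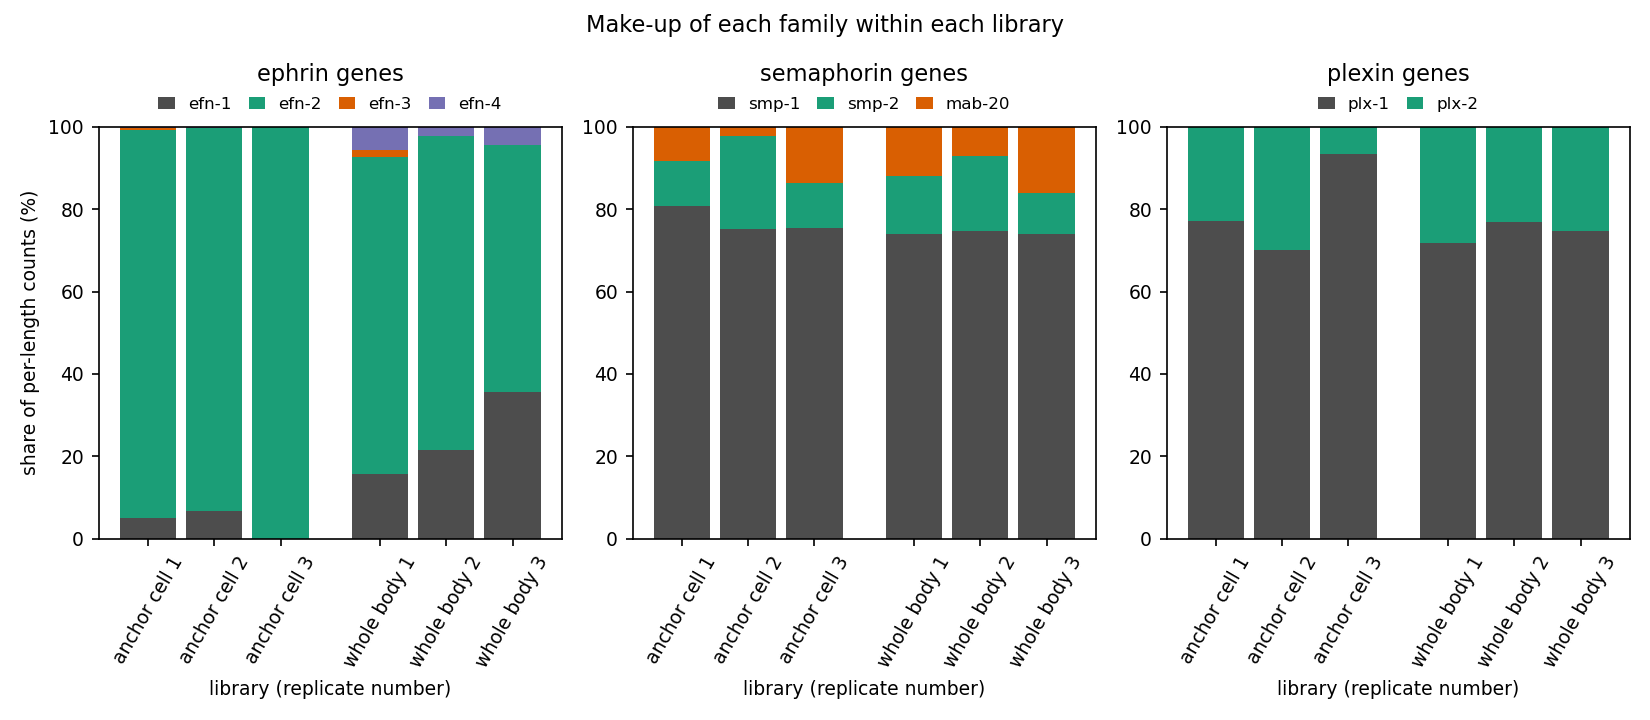
Share, in percent, of each gene in the counts per exon length of its family, one stacked bar per library, anchor cell libraries to the left of whole-body libraries in each panel. Efn-2 made up 93.0% to 100% of ephrin transcripts in anchor cells, against 59.9% to 77.1% in whole-body cells, whereas smp-1 stayed between 74.0% and 80.8% of semaphorin transcripts in all libraries.

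The plexin genes encode the semaphorin receptors, and plx-1 was the more abundant of the pair in all 6 libraries. Plx-1 had 48.5, 72.9 and 241 CPM in anchor cell replicates 1, 2 and 3, against 43.7, 41.1 and 48.7 CPM in whole-body replicates 1, 2 and 3. As with vab-1, anchor cell replicate 3 held the highest value, and replicate 1 lay within the whole-body range. The log2 fold change was 1.44 ± 0.59 (SE) over all libraries, 0.44 with anchor cell replicate 3 left out and 1.82 with replicate 1 left out. Plx-1 passed only in the fit that left out anchor cell replicate 1.

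Plx-2 had 12.1, 26.2 and 14.5 CPM in anchor cell replicates 1, 2 and 3, against 14.5, 10.5 and 13.9 CPM in whole-body replicates 1, 2 and 3. The groups overlapped, with 1 anchor cell library, replicate 2, standing clear of the whole-body range. Its log2 fold change was 0.44 ± 0.61 (SE), and -0.39 with library totals. Plx-1 exceeded plx-2 per exon length by 3.39, 2.35 and 14.03 times in anchor cell replicates 1, 2 and 3, against 2.54, 3.31 and 2.97 times in whole-body replicates 1, 2 and 3. The ratio in anchor cell replicate 3 was far above that of the other 5 libraries.

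Over the 9 members that passed the filter, 7 log2 fold changes were above 0 and 2 below with TMM scaling, and 5 were above and 4 below with library totals. Their median was 0.92, beside -0.12 for all tested genes, and with library totals 0.025 beside -0.94. Against the whole-body mean, the median log2 difference of these 9 genes was 0.13, 0.71 and 0.64 in anchor cell replicates 1, 2 and 3, with the genes that had no count in replicate 3 placed lowest. The groups did not overlap for efn-2 and smp-1, both higher in anchor cells, and for efn-4, which was lower. Over all tested genes 12.4% were higher and 23.2% lower without overlap, and nothing is read from these counts because the set was chosen with this contrast known.

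**Figure D3:**
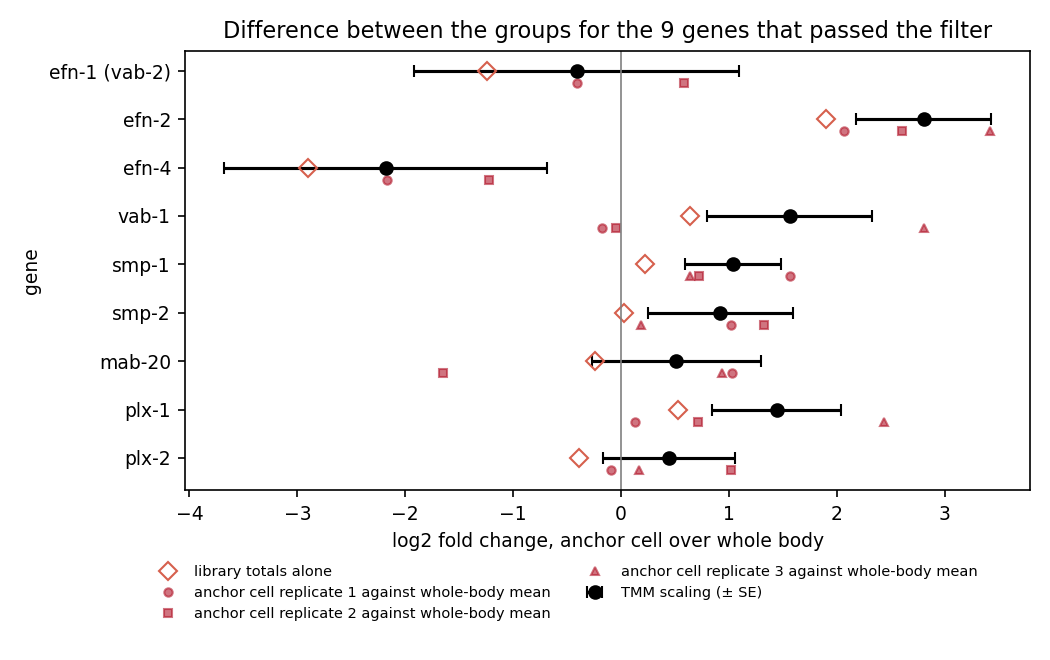
Log2 fold change of anchor cells over whole-body cells for the 9 genes that passed the filter. Black points with SE are the TMM-scaled fit, open diamonds the fit with library totals, and small red symbols each anchor cell replicate against the whole-body mean; libraries with no count (efn-1 and efn-4 in replicate 3) have no symbol. Efn-2 lay at 2.80 with all 3 anchor cell libraries above 2, while vab-1 and plx-1 were drawn upward by replicate 3, at 2.81 and 2.44.

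Levels were compared between genes as CPM per kilobase of exon. In anchor cells the order was efn-2 (64.3 ± 30.7 CPM per kilobase), smp-1 (41.6 ± 15.8), vab-1 (36.8 ± 43.7), plx-1 (18.4 ± 15.96), smp-2 (7.62 ± 2.80), mab-20 (4.23 ± 2.85), plx-2 (3.18 ± 1.37), efn-1 (2.01 ± 2.01), efn-4 (0.115 ± 0.114) and efn-3 (0.0607 ± 0.105; n = 3, SD). No neighbours in this order were apart beyond the range of their libraries. Compared within each library, vab-1 was above plx-1 and plx-2 above efn-1 in all 3 anchor cell libraries. In whole-body cells smp-1 led at 20.3 ± 5.49 CPM per kilobase, followed by vab-1 at 12.4 ± 3.72, efn-2 at 9.19 ± 4.58 and plx-1 at 6.78 ± 0.592. There the ranges of neighbours parted only below plx-1, below plx-2 and below efn-4. Within each of the 3 whole-body libraries, smp-1 was also above vab-1, and vab-1 above efn-2. Among 10369 tested genes with an annotated length, the mean level of efn-2 stood at the 92.4th percentile in anchor cells and at the 72.8th in whole-body cells, and that of smp-1 at the 88.8th in anchor cells and at the 85.9th in whole-body cells.

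All 10 genes code for protein, and they differ in structure. The ephrin genes are compact, with 874 to 1352 exonic bases, whereas the plexin genes have 6557 (plx-1) and 5538 (plx-2). The genes lie on chromosomes I (smp-1, smp-2, mab-20), II (vab-1, plx-2), IV (efn-1, efn-2, efn-4, plx-1) and X (efn-3). Vab-1 shares 32 exonic bases with ipla-1 on the other strand, plx-1 shares 12 with egrh-2, and efn-3 shares 51 with tre-4, at most 5.84% of the exons of any member.

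The 5 named genes whose log2 CPM followed that of efn-2 most closely over the 6 libraries were osta-2, snx-1, erp-1, tiar-3 and odd-2, with Pearson's r of 0.990 to 0.993. These r values are a description of the 6 libraries, which fall into 2 groups and share their depth and scaling. Erp-1, an endophilin-related gene, had 30.6, 56.3 and 100.4 CPM in anchor cell replicates 1, 2 and 3, against 6.98, 7.71 and 3.15 CPM in whole-body replicates 1, 2 and 3. As for efn-2, its values were highest in anchor cell replicate 3 and lowest in whole-body replicate 3. Erp-1 was picked by its r with efn-2 over these same libraries, so this likeness adds nothing to that r.

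Genes that act beside or below these receptors were taken as a list of 26, of which 25 were tested. The list was drawn up with earlier results of these data known. Of the 25, 3 rose and none fell, with 13 log2 fold changes above 0 and 12 below, and with library totals 10 above 0. Over all tested genes 2.01% were called higher and 1.05% lower. Before adjustment for multiple testing, 7 of the 25 were higher and 2 lower with an edgeR p under 0.05, beside 11.2% and 13.2% of all tested genes. After adjustment, DESeq2 called 3 of the list higher, limma voom 4 and its version with sample weights 5, and none of these tools called any lower. The 3 were rap-1 and mig-2, both small GTPases, and unc-34, the Enabled homolog that promotes actin growth. The median of the list was 0.32, and -0.55 with library totals.

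The Ras-like GTPase gene rap-1 had the largest change of the list. Plexins are known as GTPase-activating proteins for Rap, which they switch off. Rap-1 had 594, 971 and 709.8 CPM in anchor cell replicates 1, 2 and 3, against 68.1, 99.8 and 83.3 CPM in whole-body replicates 1, 2 and 3. The groups were far apart, and the log2 fold change was 3.18 ± 0.41 (SE; edgeR adjusted p = 0.00618). Rap-1 passed in all alternatives tried except the one without whole-body replicate 3, and with library totals its log2 fold change was 2.29. Its relative rap-2, through which PLX-1 is known to space synapses, had 57.5 ± 34.1 CPM in anchor cells and 28.6 ± 2.67 CPM in whole-body cells (n = 3 each, SD) and did not pass.

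Mig-2, a Rac-like GTPase gene, had 78.6, 64.5 and 134 CPM in anchor cell replicates 1, 2 and 3, against 13.4, 17.98 and 15.6 CPM in whole-body replicates 1, 2 and 3. Unc-34 had 130.4, 288 and 318 CPM in anchor cell replicates 1, 2 and 3, against 48.3, 47.3 and 37.5 CPM in whole-body replicates 1, 2 and 3. Neither gene's groups overlapped. Leaving out any of the whole-body replicates, or scaling by library totals, ended both calls, and leaving out anchor cell replicate 2 ended that of unc-34.

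The remaining genes that signal inside the cell did not pass over all libraries. Some passed upward in alternatives: the kinase gene mig-15 with a stricter filter that asked for 10 CPM in 3 libraries, with limma voom in both versions and without anchor cell replicate 1, the adaptor gene nck-1 with no filter, with weighted limma voom and without anchor cell replicate 1, and rap-2 and unc-60 without anchor cell replicate 1. The cofilin gene unc-60 was abundant and uneven, at 1155 ± 757 CPM in anchor cells and 543 ± 70.6 CPM in whole-body cells (n = 3 each, SD). Anchor cell replicate 1 was the lowest library for unc-60, at 282 CPM. Of the 11 tested adaptors, GTPases and their regulators, 9 had log2 fold changes above 0, and 7 with library totals. Gcn-1, a translation control gene known to act with plx-1 in male tail epidermis and singled out after its values were seen, had 72.9, 96.7 and 98.9 CPM in anchor cell replicates 1, 2 and 3, against 208, 170 and 232 CPM in whole-body replicates 1, 2 and 3. Its groups did not overlap. The log2 fold change of gcn-1 was -1.19 ± 0.37 (SE), and it passed only with library totals and with the stricter filter. Rac-2 had no count in any library; its sequence is nearly identical to that of ced-10, so the counts of both genes are uncertain.

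None of the 6 tested surface partners of these receptors passed edgeR's test in either direction, and none had an unadjusted p under 0.05. The alternatives DESeq2 and limma voom also made no call among them. Of the 6, 1 log2 fold change was above 0 and 5 below, with a median of -0.72, and with library totals all were below 0. The exception was the syndecan gene sdn-1, at 81.6 ± 19.4 CPM in anchor cells and 65.2 ± 21.0 CPM in whole-body cells. Ptp-3, the LAR receptor phosphatase gene known to act with vab-1 in embryonic morphogenesis, had 46.6 ± 36.8 CPM in anchor cells and 77.2 ± 11.04 CPM in whole-body cells (n = 3 each, SD). The difference between the groups of partner genes was not tested.

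**Figure D4:**
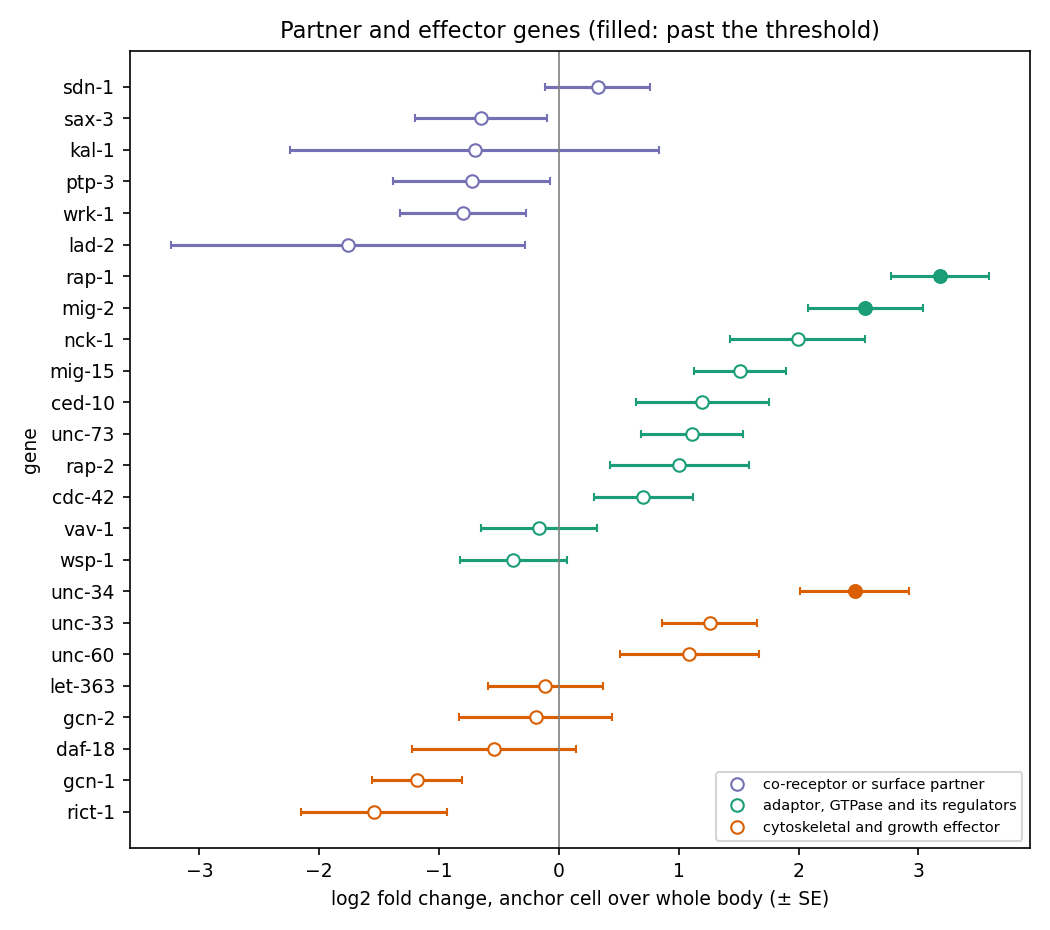
Log2 fold change (± SE) of anchor cells over whole-body cells for 24 of the 25 tested partner and effector genes, grouped by role and ordered by value; filled points are past the threshold. Rap-1 (3.18), mig-2 (2.56) and unc-34 (2.47) are the filled points, and 5 of the 6 surface partners lie below 0.

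Ephrins, semaphorins and plexins are also made by neurons, epidermis and other uterine cells, so markers of those cells were summed in each library. The 12 neuron markers came to 1832 to 3314 CPM in anchor cells and 368 to 585 CPM in whole-body cells. The 1 neuron marker past the threshold was unc-119, which took 27.6%, 78.6% and 72.8% of the sum in anchor cell replicates 1, 2 and 3 and under 1% in each whole-body library. Unc-119 is also widely used as a rescue marker on worm transgenes, the labels name no transgene, and whether its reads came from neurons was not tested. Without unc-119 the sums were 710 to 1326 CPM in anchor cells and 366 to 581 CPM in whole-body cells, still without overlap. None of the neuron markers was at 0 in any library, and 5 of the 12 were higher in anchor cells with no overlap, beside 12.4% of all tested genes. The same held for 2 of the 9 epidermal and seam markers and for 2 of the 8 gonad and uterine markers. The 9 epidermal and seam markers came to 409 to 580 CPM in anchor cells and 284 to 341 CPM in whole-body cells. Of these, 1 was called higher and 1 lower, and nhr-73 was at 0 throughout. The higher sum did not hold for the list as a set, as the median log2 fold change was -0.199. Lin-26 (1.61), egl-18 (1.98) and nhr-25 (0.526) were above 0. Dpy-7, elt-3, nhr-23, elt-1 (-2.25) and grd-10 (-3.32) were below 0. The 8 markers of somatic gonad and uterus came to 352 to 651 CPM in anchor cells and 236 to 253 CPM in whole-body cells, with ehn-3 at 0 throughout. The 1 called higher was cog-1, at 126 CPM in anchor cells and 14.4 CPM in whole-body cells. Lim-7 went the other way, at 0.402 CPM in anchor cells and 4.98 CPM in whole-body cells. The part of neurons, epidermis and other uterine cells in the values of efn-2 and the other members was not tested. In bulk libraries a different number of cells of a type and a different amount of RNA per cell cannot be told apart.

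Summed markers of muscle and germ line were lower in every anchor cell library than in any whole-body library. The 10 muscle markers came to 5820 to 7916 CPM in anchor cells and 14563 to 20369 CPM in whole-body cells, and 2 were called lower. The 10 germ line markers came to 19.6 to 30.2 CPM in anchor cells and 209 to 313 CPM in whole-body cells, and 2 were called lower. Over all tested genes 1.05% were called lower. The 8 intestinal markers came to 115 to 560 CPM in anchor cells and 513 to 1023 CPM in whole-body cells. The groups overlapped for this sum, and none of the intestinal markers was called in either direction.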

How the data were processed

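Raw whole-number counts, a value per gene and library with no normalization, were deposited by the authors. The submitters' processing notes name STAR, HTSeq, Trim Galore, FastQC, DESeq2 1.30.1 and R 4.0.2, with build WBcel235; no source used here gives the annotation release or the strand setting. The 5 summary rows were left out of library sizes and tests.

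The counts were filtered with filterByExpr, scaled by TMM and tested on all genes with edgeR 4.0.16 in R 4.3.3 (robust quasi-likelihood F test, group as the only term, Benjamini-Hochberg adjustment, threshold 0.05). The SE is the absolute log2 fold change divided by the square root of F. Exon lengths, the union over transcripts, came from the Ensembl annotation of WBcel235. On simulated counts for 11955 genes in this comparison, the step recovered 7.46%, 38.8% and 71.2% of genes changed 4-, 16- and 64-fold, with 3 false calls among 81. No library duplicated another (chi-square per degree of freedom of 81.0 or more).

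The members and lists were chosen with earlier results of these data known. Named were all members, partner genes past the threshold or among the 2 highest of their role in anchor cells, and the 5 genes most like efn-2; rap-2, gcn-1, rac-2, mig-15, nck-1 and single markers were chosen after their values were seen. Of the tested partner genes, 1 is counted but its values are not reported here. Alternatives were other scalings, filters and tests (DESeq2 1.42.0, limma 3.58.1 voom with and without sample weights), a block for replicate number, leaving out rRNA and mitochondrial genes, the longest transcript as length, and each library left out in turn.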

Additional observations from a re-analysis of the deposited data

How the results depend on the processing

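The log2 fold change of efn-2 was above 0 in all 16 alternatives, between 1.90 and 3.14, and past the threshold in 9 of them. The count of members past the threshold, 1 over all libraries, was 0 with upper-quartile scaling and with library totals and 0 to 2 with single libraries left out. The median of tested members was 0.025 with library totals and 0.44 to 1.18 with single libraries left out. Partner genes past the threshold numbered 5 with at least 10 CPM in at least 3 libraries, 5 by limma voom with sample weights, and 0 to 8 with single libraries left out. Over all genes, 365 were past the threshold, 975 with no filter, 2378 by DESeq2, 1544 by limma voom, 1946 with sample weights, and 38 to 2122 with single libraries left out. Direction turned for mab-20 (-0.24) and plx-2 (-0.39) with library totals, for mab-20 with sample weights (-0.34), and for efn-1 (0.17) and vab-1 (-0.11) without anchor cell replicate 3; with single libraries left out efn-1 ranged from -1.40 to 0.17 and vab-1 from -0.11 to 2.00. The cause was not tested.

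With the replicate number as a block, 728 genes passed, efn-2 was again the 1 member (2.81), and 3 partner genes passed. Deviations from the group means were little correlated between same-numbered libraries (r of 0.053, -0.032 and -0.0032). Not every library correlated best with its own number. These values, from 3 libraries per group, cannot decide whether the numbers pair the samples.

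The share of smp-1 in whole-body cells was 73.6% with the longest transcript as length. With single anchor cell libraries left out, 6 to 10 members kept their rank. The low counts of efn-3 and efn-4, 4 and 10 over the anchor cell libraries, limit the precision of their values.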
